A study of Saccharomyces cerevisiae with 67 samples.

Results

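Convergent intergenic intervals are the stretches between gene pairs whose reading frames run towards each other, so that each interval is bordered by 2 gene ends and holds no start of either gene. They were taken here as every gap of at least 1 bp between adjacent, non-overlapping nuclear protein-coding genes of the sacCer3 (R64) annotation with the left gene on the plus strand and the right gene on the minus strand. This rule found 1513 convergent intervals among 5868 intergenic intervals of all orientations. The other 2828 tandem intervals (1 gene end and 1 gene start) and 1527 divergent intervals (2 gene starts) served for comparison. The intervals were set against the deposited list of regions with histone H4 acetylated at lysine 12 (H4K12ac), as measured by chromatin immunoprecipitation and sequencing (ChIP-seq). The cultures were BY4741 yeast in rich medium, either wild type (WT) or without the RNA-binding protein Mip6 (mip6Δ). They were held at 30 °C, or shifted to 39 °C for 20 or 120 min. The labels list 19 H4K12ac libraries, of which 3, 1 and 4 are from WT cells of these 3 conditions and 4, 3 and 4 from mip6Δ cells. BY4741 is also known to lack the LEU2 and MET17 reading frames, in both genotypes.

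In the compact yeast genome the gene ends of a convergent pair lie close together, and transcripts of both genes run into the interval, where each is cleaved and polyadenylated. Cohesin, the ring complex that holds sister chromatids together, is known to accumulate between convergent genes. H4K12ac is written by the Esa1 and Hat1 acetyltransferases, marks nucleosomes near active promoters and is removed by deacetylases over transcribed gene bodies. An interval bordered by no protein-coding gene start can therefore be compared with intervals bordered by 1 or 2 of them. Some convergent intervals hold a tRNA or snoRNA gene, so not all of them lack a promoter.

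The list has 1970 regions on 16 chromosomes, is merged over samples and gives positions only, with no sample named. Regions held 61.8% of the nuclear genome and 57.4% of the bases in protein-coding genes. A region can be set by any merged library, so no strain or time point can be separated, no interval has a replicate value, and the read depth behind a region is unknown from the file. The intervals of 1 pooled list are not replicates of the experiment. No test was made, and all differences below are descriptions of this list. The 95% Wilson intervals given for the main shares cover counting error only.

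The shortest convergent intervals show how closely the gene ends can abut. All 14 intervals of at most 24 bp were either wholly inside a region (8) or wholly outside (6). The 3 shortest of each kind are printed 5′ to 3′ on the plus strand from the sacCer3 sequence in RefSeq, with the stop codon of the left gene and the reverse complement of the stop codon of the right gene in capitals and the whole interval in lower case.
LSM7-YNL146C-A, inside a region, chrXIV:351381-351388: TAGgtTTA
PHM8-KRE29, inside a region, chrV:226852-226860: TGActgTTA
POP4-SHG1, inside a region, chrII:729722-729736: TAGtaagagttaTTA
SPC97-YHR173C, outside, chrVIII:450804-450817: TGAacgcggcgTTA
BUR2-ADY4, outside, chrXII:590539-590564: TAAaaatagagtacaagttatgtTTA
YLR156W-YLR156C-A, outside, chrXII:472455-472481: TAActatttcggttgcggccatatCTA
The 2 bp between LSM7, a subunit of an RNA decay and splicing complex, and YNL146C-A were the shortest interval found. Beyond the limit of the rule, 27 convergent pairs overlap. Their shared bases were wholly inside a region in 19 pairs, partly in 1 and outside in 7.

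Regions were found less often in convergent intervals than in the others. Of the 1513 convergent intervals, 728 lay wholly inside a region, or 48.1% (95% Wilson interval 45.6 to 50.6%), against 70.5% of all intergenic intervals. At least 1 base was covered in 1005, or 66.4% (64.0 to 68.8%), against 87.2% of all. The other 508, or 33.6%, had no covered base, against 12.8% of all. The midpoint was covered in 856, or 56.6% (54.1 to 59.1%), against 79.2% of all. By orientation, 86.4% of tandem midpoints (85.1 to 87.6%) and 88.2% of divergent midpoints (86.5 to 89.7%) were covered. Thus the convergent share was 29.8 percentage points below the tandem one and 31.6 points below the divergent one. The Wilson intervals count each midpoint as separate, although 1 region can cover several, so they do not test these differences. Counted in bases, regions held 283289 of 521048 bp of convergent intervals, or 54.4%, against 76.5% of tandem and 81.3% of divergent bases. Hence only convergent intervals, of the 3 orientations, had a lower covered share than the genome as a whole.

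**Figure D1:**
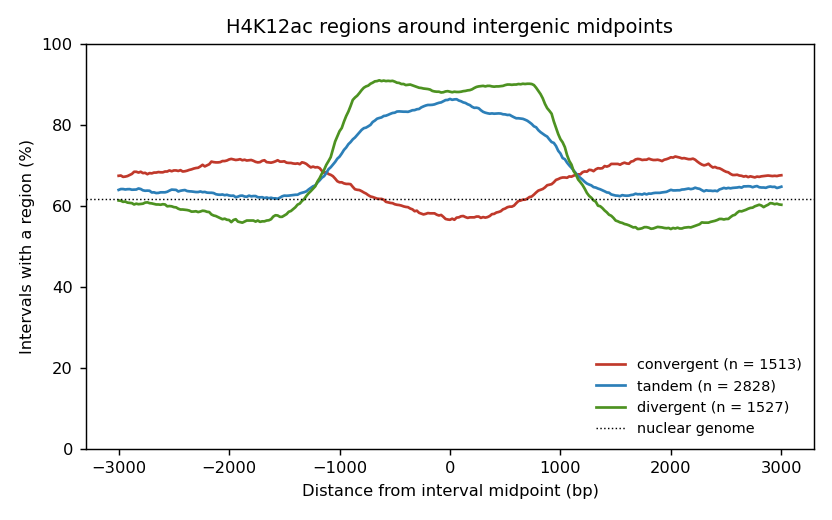
Share of intervals with a region (%, y axis) at each distance from the interval midpoint (bp, x axis), in steps of 20 bp, for convergent, tandem and divergent intervals. The dotted line is the 61.8% of the nuclear genome inside regions. The convergent curve is lowest at its midpoint, 56.6%, and rises to about 72% near 2000 bp on both sides, where the divergent curve is near its lowest values.

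The profile around the midpoints had opposite shapes in convergent and divergent intervals. Over 3 kb on each side, the convergent share was lowest at the midpoint itself, 56.6%. It was highest 1980 bp to the left, 71.6%, and 2040 bp to the right, 72.2%. The divergent share was highest 640 bp to the left of the midpoint, 91.0%, and lowest 1700 bp to the right, 54.3%. Therefore the drop at convergent midpoints was shallow, from 72.2 to 56.6%, and these intervals were not free of regions as a class.

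Coverage was lower the longer the shorter gene of the pair was, except at the midpoints of long intervals. Genes were grouped by length in classes of 0.75 kb, each with its lower bound included. When the shorter gene was under 0.75 kb, 520 of 689 intervals were wholly inside a region, or 75.5%, and the midpoint was covered in 84.6%. For a shorter gene of 0.75 to 1.5 kb, 198 of 602 were wholly inside, or 32.9%, with 42.2% of midpoints covered. For 1.5 to 2.25 kb this was 8 of 163, or 4.91%, and for 2.25 kb or more 2 of 59, or 3.39%. Thus the midpoint share fell by 76.1 percentage points from pairs with a gene under 0.75 kb to pairs of genes of 1.5 kb or longer. More than 30 kb from the chromosome ends and without repeated sequence, the midpoint share over the same classes was 89.2, 42.0, 7.59 and 3.85%.

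The length of the longer gene made less difference once the shorter one was small. With a shorter gene under 0.75 kb, the midpoint was covered in 90.9% of 296 intervals whose longer gene had 0.75 to 1.5 kb and in 78.7% of 122 whose longer gene had 2.25 kb or more. With a shorter gene of 0.75 to 1.5 kb, the midpoint share was 64.9% of 202 intervals with a longer gene in the same class, 31.2% of 208 with one of 1.5 to 2.25 kb and 30.2% of 192 with one of 2.25 kb or more. Pairs in which both genes were under 0.75 kb had a lower share, 78.9% of 109. Thus most pairs with 1 short gene had a covered midpoint whatever the length of the other gene.

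**Figure D2:**
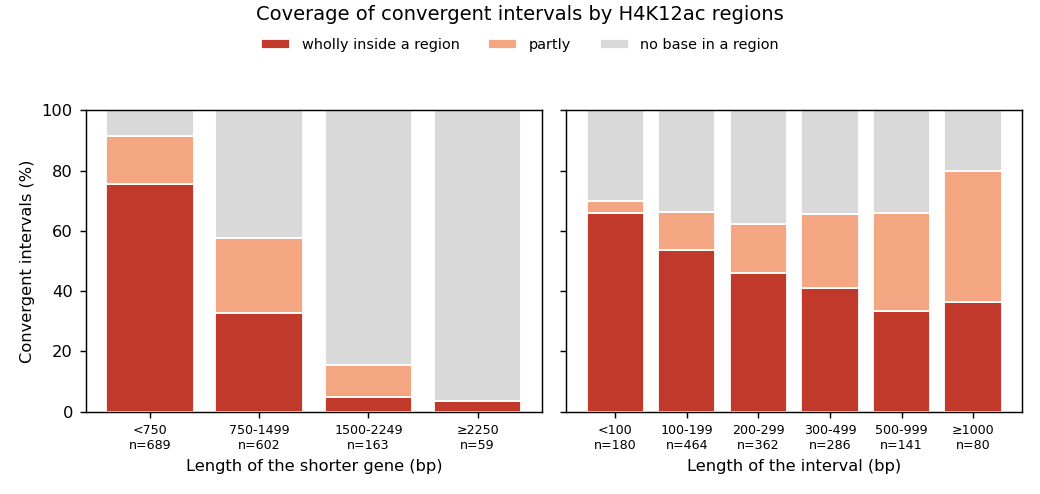
Share of convergent intervals (%, y axis) that lie wholly inside a region, partly inside or outside all regions, by length of the shorter gene (left panel, bp) and by length of the interval (right panel, bp), with the number of intervals under each bar. The wholly covered share falls from 75.5 to 3.39% with gene length, while the uncovered share stays between 20.0 and 37.6% over all interval lengths.

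Up to 1000 bp, shorter intervals were covered more often. Convergent intervals had a median length of 231 bp, with quartiles of 141 and 353 bp and a range of 2 to 8042 bp. Tandem intervals had a median of 401 bp and divergent ones of 511 bp. The wholly covered share was 66.1% below 100 bp, 53.7% from 100 to below 200 bp, 46.1% below 300 bp, 40.9% below 500 bp, 33.3% below 1000 bp and 36.2% from 1000 bp on. Over the same classes the uncovered share was 30.0, 33.6, 37.6, 34.3, 34.0 and 20.0%, while the partly covered share went from 3.89 to 43.8%. The midpoint, which does not gain from a longer interval, was covered in 67.8, 59.1, 53.3, 52.4, 44.7 and 67.5%. Of the bases, 68.3% were covered below 100 bp, 45.0% from 500 to below 1000 bp and 58.7% from 1000 bp on. A longer interval has more room for a region edge, so the shares wholly, partly and not covered are not independent of length. With a shorter gene under 0.75 kb, the wholly covered share over these classes was 83.5, 87.3, 83.9, 64.7, 48.6 and 42.5%, so it was lower only from 300 bp on. With a shorter gene of 1.5 to 2.25 kb, 0 of 16 intervals below 100 bp and 1 of 38 from 100 to below 200 bp were wholly covered. At 1000 bp or more, 67.5% of 80 convergent, 65.5% of 348 tandem and 64.7% of 258 divergent midpoints were covered. The lower midpoint share of convergent intervals was thus not seen in this class. Of the bases, 58.7% were covered in convergent, 61.1% in tandem and 67.5% in divergent intervals of this length.

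The 5 longest intervals were mixed. NCE103-YNL035C (NCE103 encodes carbonic anhydrase), chromosome XIV from 560480 to 568521, is 8042 bp long, was covered over 20.2% and holds 6487 bp of repeated sequence. TAR1-YLR154C-G, chromosome XII from 455071 to 462521, lies at the ribosomal DNA, was covered over 13.8% and holds 6695 bp of repeated sequence. YAL067W-A-SEO1, near the end of chromosome I, is 4527 bp long and was covered over 17.7%. In contrast, MID2-RPS25B on chromosome XII (791807 to 795572), between a cell wall stress sensor and a ribosomal protein gene, was covered over all of its 3766 bp, and FDC1-IRC4 on chromosome IV over 97.6% of 3530 bp. Repeated sequence is defined by 50-mers found more than 1 time in the genome. How reads with several matches were treated is not given in the sources used here, and the part of repeats in the uncovered intervals was not tested.

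A convergent midpoint lies far from any gene start by construction. The median distance to the nearest protein-coding start was 976 bp for convergent midpoints, 201 bp for tandem and 256 bp for divergent ones, and in 99.1% of convergent intervals that start belonged to the pair itself. Positions were therefore also compared at the same distance from a start, in classes of 250 bp. At 0.5 to 0.75 kb, 91.2% of 306 convergent midpoints were covered, against 64.9% of 185 tandem midpoints and 80.9% of positions inside genes taken every 10 bp. At 0.75 to 1 kb the shares were 71.8% of 280 convergent midpoints, 76.8% of 82 tandem midpoints and 55.9% of gene positions. At 1 to 1.25 kb they were 49.0, 64.0 and 27.6%, with 247 convergent and only 25 tandem midpoints. At 1.25 to 1.5 kb, 25.1% of 171 convergent midpoints, 56.5% of 23 tandem midpoints and 13.6% of gene positions were covered, and at 1.5 to 1.75 kb 12.7% of 110, 60.0% of 15 and 8.42%. Thus, from 0.75 to 1.75 kb, convergent midpoints lay between gene positions and the few tandem midpoints. Were convergent midpoints covered as often as gene positions in the same distance class, 45.6% of them would lie in a region, 11.0 percentage points fewer than observed. For tandem midpoints the same difference was -0.10 points. Hence in each class beyond 500 bp convergent midpoints lay inside regions more often than positions in genes, but from 0.75 to 1.75 kb less often than tandem midpoints.

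**Figure D3:**
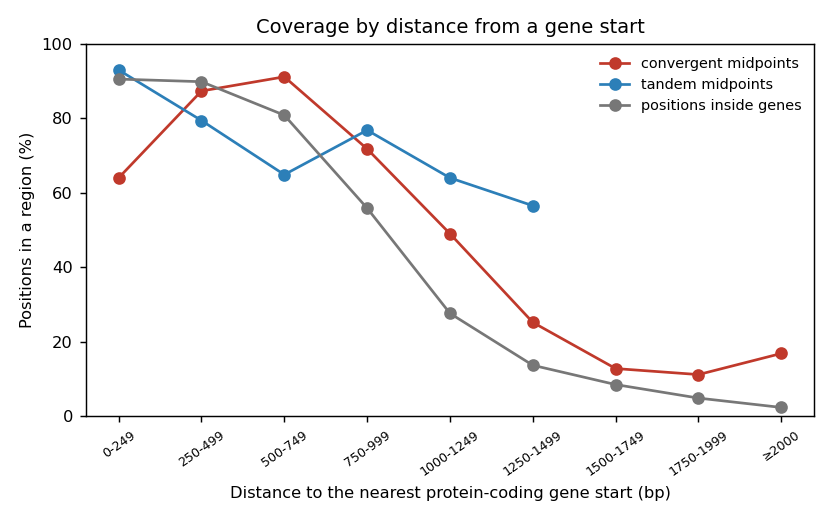
Share of positions inside a region (%, y axis) by distance to the nearest protein-coding gene start (bp, x axis) for convergent midpoints, tandem midpoints and positions every 10 bp inside genes. Classes with fewer than 20 positions are left out. From 500 bp on, convergent midpoints lie above gene positions in every class, for example 49.0 against 27.6% at 1 to 1.25 kb.

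A convergent midpoint has a gene start on each side, and the second start moved with coverage. For midpoints whose nearer start lay 1 to 1.25 kb away, 31 of 47 were covered, or 66.0%, when the other start was less than 250 bp farther. This was 37 of 68, or 54.4%, when it was 0.25 to 0.75 kb farther and 53 of 133, or 39.8%, when it was 0.75 kb or more farther. For a nearer start at 0.75 to 1 kb the shares were 90.5, 80.2 and 59.4%. At 0.5 to 0.75 kb they were 86.7, 91.7 and 92.7%, without such an order. Gene positions at the same distance were not matched on the second start, so its part in the 11.0 points was not tested.

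The ends of the distance range departed from the trend. Closer than 250 bp, 16 of 25 convergent midpoints were covered, or 64.0%, against 90.6% of gene positions. At 2000 bp or more, 23 of 137 were covered, or 16.8%, against 2.27% of gene positions. Of these 137 intervals, 44 also hold a tRNA, snoRNA or other RNA gene, a long terminal repeat, a centromere or a replication origin, and 14 of the 44 were covered, or 31.8%. Without such a feature, 9 of 93 were, or 9.68%.

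For pairs whose starts were close, 1 region ran across the whole pair. In 509 pairs, or 33.6%, both gene starts lay in the same region, which then covered the interval as well. In 794 pairs, or 52.5%, the starts lay in 2 different regions, in 168 only 1 start lay in a region, and in 42 neither did. Both starts shared a region in 80.2% of 131 pairs with less than 1.5 kb from start to start and in 79.6% of 191 pairs with 1.5 to 2 kb. This fell to 63.9% at 2 to 2.5 kb, 28.3% at 2.5 to 3 kb, 8.38% at 3 to 4 kb and 0.93% of 215 pairs at 5 kb or more. Over the same classes the wholly covered share went from 87.0 to 13.5%.

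**Figure D4:**
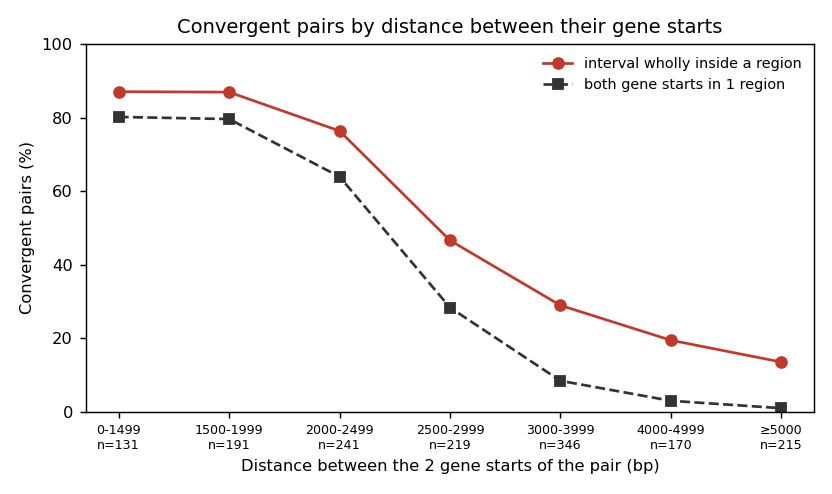
Share of convergent pairs (%, y axis) whose interval lies wholly inside a region (circles) and whose gene starts both lie in 1 region (squares), by distance between the 2 gene starts (bp, x axis). Both shares are near 80% or above below 2000 bp and fall most between 2000 and 4000 bp.

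When the starts were in 2 regions, the gap between them was usually not centred on the interval. In 785 of the 794 pairs exactly 1 gap separated the regions, with a median length of 1832 bp (quartiles 1105 and 2941 bp). This gap reached into the convergent interval in 609 pairs, or 77.6%, but its midpoint fell inside the interval in only 81, or 10.3%. In the other 704 pairs the gap midpoint lay in 1 of the genes, and this was the longer gene in 683, or 97.0%. The middle of the stretch from start to start always lies in the longer gene or in the interval. A high share in the longer gene therefore follows largely from the gene lengths. The intervals took up a median of 6.12% of the length from start to start, so few gap midpoints would fall there by size alone. Over all gaps of the list, 621 of 1954 held a convergent midpoint, or 31.8%, against 14.9% with a tandem and 7.27% with a divergent midpoint. Gaps with a convergent midpoint had a median of 2318 bp against 1334 bp for those without. A longer gap has more room for a midpoint, and the medians were 1998 against 1551 bp with and without a tandem and 1780 against 1611 bp with and without a divergent midpoint.

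Region edges were also frequent in convergent intervals. They held 292 of the 3940 edges, or 0.56 per kb, against 0.35 per kb in tandem and 0.22 per kb in divergent intervals and 0.32 per kb in genes. Of the 277 partly covered intervals, 140 were covered from the left end only, 129 from the right end only, 4 held a gap and 4 a region of their own. The covered side was that of the shorter gene in 235 of the 269 one-sided intervals, or 87.4%. In the 122 pairs of a gene under 0.75 kb with a gene of 2.25 kb or more, the base next to the shorter gene was covered in 111, or 91.0%, and the base next to the longer gene in 75, or 61.5%. Thus regions entered convergent intervals mostly from the side with the nearer start.

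Of the 856 covered midpoints, 509 lay in a region that held both gene starts of the pair, 309 in a region with the start of the shorter gene only and 21 in one with the start of the longer gene only. The other 17 lay in 17 regions without any protein-coding start, out of 69 such regions in the whole list. These regions were between 677 and 2931 bp long, with a median of 1558 bp. For 8 of the 17, the annotation gives a tRNA or snoRNA gene, a long terminal repeat, a centromere, a replication origin or a pseudogene inside the region, and for 9 it gives none of these. In VTC2-MSH4, between a polyphosphate synthesis gene and a meiotic recombination gene, the region spans chromosome VI from 134200 to 137010 and holds a replication origin. In DNM1-YLR001C, beside the gene of the dynamin for mitochondrial fission, the region spans chromosome XII from 149841 to 152120 and holds the centromere. In GPH1-SGV1 (glycogen phosphorylase and a cyclin-dependent kinase) on chromosome XVI from 862909 to 864565, in RIM4-NPR3 (a meiotic RNA-binding protein and a regulator of TORC1) on chromosome VIII from 57876 to 60037 and in NOP4-SSN3 (a ribosome biogenesis factor and the kinase of the Mediator) on chromosome XVI from 471899 to 473099, it holds none of these features.

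Coverage between long genes was rare. Of the 222 intervals with both genes of 1.5 kb or longer, 195 were uncovered, or 87.8%, 17 partly and 10 wholly covered. The 5 pairs just described are among the 10, and the region over the interval held neither gene start in each of them. In the other 5, MIP6-YSC84, MPP10-MRX12, YJR015W-ILV3, PDH1-YPR003C and MET13-MON1, both starts lay in 1 region. That of MET13-MON1 (a methionine pathway reductase and a vacuole fusion factor) spans chromosome VII from 268237 to 279044. At the other extreme, the 5 intervals with the longest shorter gene had no covered base. In 4 of them both genes are of 4816 to 5314 bp, with 690 to 900 bp of repeated sequence in the interval, and no region lay at either start (YDR210W-B-YDR210C-D, YGR161W-B-YGR161C-D, YPR158W-B-YPR158C-D and YDR261W-B-YDR261C-D). Repeated sequence within the genes and at their starts was not counted, so these 4 do not show an effect of gene length. In SMC4-CSF1 on chromosome XII (306500 to 306854), beside the gene of a condensin subunit, no base is repeated and both starts lay in regions, 4257 and 8877 bp from the gene ends.

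Short genes did not ensure a covered interval. YDR524W-C-YDR524C-B on chromosome IV (1489493 to 1489597) had no covered base although the genes have 90 and 201 bp, and neither start lay in a region. CSM4-YPL199C (CSM4 acts in meiotic chromosome movement), with 471 and 723 bp, had a region only at the start of YPL199C. CDA1-DPA10 (CDA1 encodes a chitin deacetylase of the spore wall) had none at either start. ISU1-ODC1, an iron-sulfur scaffold and a mitochondrial carrier, had a region that ended 87 bp before the interval, within ISU1. In MRP51-IDI1, a mitochondrial ribosomal protein and an enzyme of sterol precursor synthesis, both starts lay in regions and the 201 bp between the genes were skipped. These 5 are the uncovered intervals with the smallest longer gene, away from chromosome ends and repeats.

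Convergent intervals beside listed genes were counted next. Of 138 ribosomal protein genes, 72 border a convergent interval, and 63 of these 70 intervals were wholly covered, or 90.0%, 6 were partly covered and 1 was not. With a shorter gene under 0.75 kb, all 37 were wholly covered, against 74.1% of 652 other convergent intervals in that class. At 0.75 to 1.5 kb, 26 of 33 were, or 78.8%, against 30.2% of 569. Both starts lay in 1 region in 46 of the 70. Where the longer gene had 1.5 kb or more, 22 of 27 were still wholly covered. RPL13A-RPP1A, with 413 bp between 2 ribosomal protein genes, and RPS14B-RPS22A, with 298 bp, were covered throughout. The uncovered one, named after its value was seen, was RPL2B-VID28 on chromosome IX (317933 to 318199), whose partner has 2766 bp. PTR2-RPL40B was covered over 9.57% and RPL17A-COY1 over 19.5%. The ribosomal protein list was chosen with earlier results of this region list known, so its count is no independent evidence.

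All 6 intervals at core histone genes were wholly covered, against 75.5% of all convergent intervals with a shorter gene under 0.75 kb. HHT1-IPP1 (histone H3) lies in the region on chromosome II from 253592 to 259594, and SIW14-HHT2 and HHF2-KTR5 (histones H3 and H4) share the region on chromosome XIV from 573965 to 580275. HTB2-ECM15 and UTP20-HTA2 share the region on chromosome II from 234522 to 239293, although UTP20 is 7482 bp long and its own start lies in another region. CRF1-HTB1, with 814 bp, lies in the region on chromosome IV from 906524 to 918376. The histone genes are 312 to 411 bp long. Of the 12 intervals at glycolytic genes, 6 were wholly covered, 3 partly and 3 not, a wholly covered share near the 48.1% of all convergent intervals. PGK1-POL4, BLI1-FBA1 and MHO1-TDH2 were wholly covered, while HXK2-RTG2, CDC19-YAL037C-A and REV1-PYK2 had no covered base.

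Of 13 intervals at heat-shock protein and chaperone genes, 4 were wholly covered (30.8%), 4 partly (30.8%) and 5 not (38.5%), against 48.1, 18.3 and 33.6% of all 1513, a small count with no test. HSP26-YBR072C-A (a small heat-shock protein), HTL1-HSP30, HSP150-CIS3 and YOR019W-HSP10 (the mitochondrial co-chaperonin) were wholly covered. GSY2-HSP60, between glycogen synthase and the mitochondrial chaperonin, was covered over 34.4%, DPC25-SSE1 over 39.0%, SSB1-HO over 29.4% and PAU17-SSA2 over 51.8%. HSP12-IES1, PEX32-SSE2 and AQR1-YDJ1 had no covered base, nor had FEX1-HSP33 and HSP32-FEX2, near chromosome ends, where 578 of 633 bp and 565 of 627 bp are repeated. Of the 10 trehalose genes, 3 border a convergent interval, and none of these intervals was wholly covered. RMD1-NTH1 (neutral trehalase) was covered over 39.0% of 943 bp, ATH1-YPR027C (acid trehalase) over 44.8% of 1410 bp, and TSL1-ARG81 (a subunit of the trehalose synthase complex) not at all.

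MIP6 and its paralogue PES4 both end in convergent intervals, and their partners YSC84 and LSB3 are themselves paralogues that bind actin. MIP6-YSC84, chromosome VIII from 136534 to 136880, was wholly covered by a region from 122587 to 139649 that also held both gene starts, although the genes have 1980 and 1575 bp. PES4-LSB3, chromosome VI from 201710 to 201959, was covered over 235 of 250 bp from the side of PES4, and the starts lay in 2 regions. MIP6 is deleted in 11 of the 19 labelled H4K12ac libraries. The list shows neither which libraries were merged nor which gave the region. LEU2-NFS1 on chromosome III and MET17-ACO1 on chromosome XII, each beside a gene that BY4741 lacks, had no covered base. No region lay at the start of LEU2 or of MET17.

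Several convergent ends could lie in 1 region. Of the 671 regions with a convergent midpoint, 145 held 2 or more. The region on chromosome XI from 425298 to 440895 held 5, MRT4-LAC1, CAP1-SFT1, RPL14A-BYE1, AUR1-MRP17 and DID4-MET14, and 6 regions held 4. Regions with a convergent midpoint had a median length of 5012 bp, against 2229 bp for the other 1299. A long region has more room for a midpoint, so this difference follows in part from length.

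The shares also differed between intervals with and without other annotated features, which were not matched on gene or interval length. Of 14 convergent intervals with a snoRNA gene, 13 were wholly covered and 1 partly, with a median shorter gene of 408 bp against 819 bp for all. Of 45 with a tRNA gene, 14 were wholly covered, 29 partly and 2 not, at a median length of 1302 bp. All 5 intervals with a centromere held covered bases, 4 of them throughout. Of 115 with a replication origin, 45 were uncovered, or 39.1%. Within 30 kb of a chromosome end, 45 of 86 were uncovered, or 52.3%, and of 115 with repeated sequence 50 were, or 43.5%, at median interval lengths of 545 and 883 bp. In the 1321 intervals without any other feature, 50.5% were wholly covered and 33.6% were not covered. By chromosome, the wholly covered share ranged from 38.5% of 135 intervals on chromosome XII to 61.7% of 94 on chromosome X.

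Convergent intervals were rich in A and T, whether covered or not. Their median GC content was 29.1%, against 33.9% in tandem and 36.1% in divergent intervals, and it was 29.3% with a covered and 28.7% with an uncovered midpoint. TATATA, the letters of an element that directs 3′ end formation in yeast (its own reverse complement), was found in 62.3% of 464 convergent intervals from 100 to below 200 bp, against 52.8% of all 726 intergenic intervals of that length. It was found in 67.1% of convergent intervals from 200 to below 300 bp, against 50.7% of all and 21.8% of divergent ones. Among tandem intervals, 42.7% in the shorter and 55.3% in the longer of these 2 classes held it. In both classes the share with TATATA was nearly the same with covered and uncovered convergent midpoints, 62.4 and 62.1% in the shorter and 67.4 and 66.9% in the longer class. The classes were not matched on GC content. AATAAA, the letters of a second such element, on either strand and free to overlap TATATA, was found in 78.2% of covered and 79.3% of uncovered ones from 200 to below 300 bp, against 60.4% of all intervals of that length. In other length classes covered and uncovered intervals were farther apart. Below 100 bp TATATA was found in 43.4% of covered and 32.8% of uncovered ones, and from 300 to below 500 bp AATAAA in 78.0 and 88.2%. Over all lengths TATATA was found in 65.8% of convergent, 63.2% of tandem and 46.9% of divergent intervals. AATAAA was found over all lengths in 64.1% of covered and 71.1% of uncovered convergent intervals, and in 67.2% of convergent, 71.3% of tandem and 70.7% of divergent intervals. A match does not show that an element is used.

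Windows of 30 bases around the leftmost TATATA (capitals) that has 12 interval bases on each side are shown for 2 wholly covered and 2 uncovered intervals already described, on the plus strand of sacCer3, to set the element side by side in both states. Such windows of HHF2-KTR5 (covered) and PEX32-SSE2 (uncovered) are not shown, and SMC4-CSF1 (uncovered) has none. The intervals shown were picked because they hold the element, so they do not tell how often it occurs.
HHT1-IPP1, covered, chrII:257019-257048: tcatgagtcagtTATATAatcgatatatag
MIP6-YSC84, covered, chrVIII:136757-136786: ttccattgtgatTATATAactacaaacatt
HSP12-IES1, uncovered, chrVI:107702-107731: atcgaggtggaaTATATAaacttaagtacg
TSL1-ARG81, uncovered, chrXIII:73969-73998: tcaactgcttatTATATAtcaattctataa
In HSP12-IES1 the element lies 128 bases after the stop codon of HSP12 and 132 bases before that of IES1, near the middle of the interval. In TSL1-ARG81 it lies 60 bases after the stop codon of TSL1, and in MIP6-YSC84 106 bases before that of YSC84.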

How the data were processed

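H4K12ac and total H4 ChIP-seq and RNA-seq were made from WT and mip6Δ cultures. Only the list of H4K12ac regions was used here. For this list the authors used Cutadapt for trimming, Bowtie2 with the sacCer3 genome, MACS2 for peaks of the H4K12ac libraries only and bedtools for merging over all samples (versions and peak threshold are not given in the sources used here). The deposited file gives the start and end of each region in bp, and its score column is 0 throughout. Merging joins peaks of different libraries, so a region can be wider than any single peak.

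Starts were converted to count from 1. Genes were 6002 nuclear protein-coding genes of RefSeq R64, whose spans are coding spans. Their ends are stop codons, so intervals include the ends of transcripts. Chromosome names matched, and 0 regions passed a chromosome end. Covered bases were counted per interval. Repeated bases lie in 50-mers found more than 1 time on either strand. Members and gene lists were chosen with earlier results of these data known.

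Named intervals were the 5 longest, the 5 with the longest shorter gene, the 5 uncovered with the smallest longer gene (over 30 kb from chromosome ends, no repeats), the 5 wholly covered with the longest shorter gene, those beside MIP6, PES4 and trehalose, histone or heat-shock genes, and the shortest 3 of each state up to 24 bp. Others were named after their values were seen. Coverage functions were tested on simulated data. Alternatives were the overlap, the genes, lengths and ends of intervals, chromosome ends, repeats, and the regions kept, joined or shortened. Scripts ran in Python 3.11.15 with Matplotlib 3.10.9 for plots, NumPy 2.4.6 for coverage and SciPy 1.17.1 for Wilson intervals.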

Additional observations from a re-analysis of the deposited data

How the results depend on the processing

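Of 64 alternative values for 7 results, 47 stayed within the 95% limits of the main value and 17 did not. None of the differences between shares changed sign. The shares themselves cannot be negative, so a change of direction was not possible for them. Limits of the differences were combined from the Wilson intervals of their shares. Limits of the base share, 51.9 to 56.9%, were computed as if it were a share of 1513 intervals. They serve as a yardstick and are no error of the base share. Requiring 50% of an interval to be covered lowered the share with a covered base from 66.4 to 56.6%, and shortening intervals by 50 bp at both sides lowered it to 62.7%. The covered share of bases was 57.7% more than 30 kb from chromosome ends and 58.2% without repeated sequence, where the difference in midpoint share between short and long genes was 82.3 percentage points. Without the longest 5% of regions (99), any base was covered in 54.1%, the whole interval in 36.9%, 43.2% of bases and 44.7% of midpoints, with differences of -26.8 points to tandem midpoints and 61.2 points by gene length. With regions shortened by 150 bp at both ends these shares were 56.1, 42.5, 46.9 and 48.3%, with differences of -38.0 points to divergent midpoints and 67.7 points by gene length. Both settings remove covered bases by construction. The setting without genes inside transposable elements was chosen after seeing the data and moved no value beyond its interval. No stricter peak threshold could be set, because the list has no scores. No paired analysis was possible because every library went into 1 merged list without replicate labels, which also means that leaving out a library could not be tried.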
